A study of Mus musculus with 6 samples.

Results

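Interferon-stimulated genes are the genes that cells switch on when interferons, the cytokines of antiviral defence, bind their receptors. The set described here holds 39 such genes, with sensors of foreign nucleic acid and the transcription factors of the response, and leaves out the GBP and IRG GTPases. Members were chosen by gene symbol, with earlier results of these data known. Each symbol matched 1 row, and these are 39 of the 26100 rows of the count table. All 39 passed the filter on low counts, which left 16633 rows for testing. They were read in whole lung of 3 mice lacking *Clec7a* (KO) and 3 wild-type mice (WT), all given bleomycin into the trachea and sampled at day 14. *Clec7a* encodes dectin-1, a beta-glucan receptor of myeloid cells, and bleomycin breaks DNA and is used in mice to injure and scar the lung. The sources used here do not give strain, sex, age or how the knockout allele was made. Lungs without bleomycin were not analysed here, so each comparison is between genotypes within injured lungs.

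Type I interferons signal through the receptor chains IFNAR1 and IFNAR2 and the kinases JAK1 and TYK2. A complex of STAT proteins with IRF9 then binds the interferon-stimulated response element in the promoters of target genes, and many of the same genes also respond to type II and type III interferons. The products degrade or sequester viral RNA, block translation or viral budding, sense foreign nucleic acid, or dampen the signal. In lung, epithelial cells, endothelium, fibroblasts and leukocytes can all express them.

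The response element can be read in the members' promoters, and the lines below are shown because part of the members share it. The RefSeq promoter table for GRCm38.p6, with windows of 250 bases before to 50 bases after each start, held 29 of the 39 genes. Searched on both strands, the core of the response element (GAAA, any 2 bases, GAAA) was found in 13 of these 29 genes, 44.8%, and in 3.91% of the 11774 tested genes with a window. The lines run 5′ to 3′ on the gene's own strand, capitals mark the core motif or its reverse complement (TTTC, any 2 bases, TTTC), and overlapping matches are joined. They are the genes whose matches all lie further upstream than in the other 5, in order of the number of matches.
Isg15: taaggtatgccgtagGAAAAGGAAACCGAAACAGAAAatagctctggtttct
Ifit1: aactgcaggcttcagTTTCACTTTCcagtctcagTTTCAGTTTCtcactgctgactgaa
Ifit3: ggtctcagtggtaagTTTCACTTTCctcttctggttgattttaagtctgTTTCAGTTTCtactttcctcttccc
Bst2: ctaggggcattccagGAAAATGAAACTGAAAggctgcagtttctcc
Socs1: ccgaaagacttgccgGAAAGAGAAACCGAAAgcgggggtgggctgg
Stat2: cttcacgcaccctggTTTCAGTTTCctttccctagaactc
Rsad2: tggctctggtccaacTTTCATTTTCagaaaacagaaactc
Oas3: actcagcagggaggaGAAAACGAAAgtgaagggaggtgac

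The *Isg15* line is chr4:156200860-156200911 on the minus strand, and its 3 overlapping matches begin 78 bases before the start. The *Ifit1* line is chr19:34640770-34640828 on the plus strand, with 2 matches from 104 bases before the start. The *Ifit3* line is chr19:34583358-34583431 on the plus strand, with 2 matches from 156 bases before the start. Each of these promoters therefore carries the motif more than once, as do those of *Bst2* (chr8:71537572-71537617, minus strand) and *Socs1* (chr16:10785589-10785634, minus strand). Single matches are shown for *Stat2* (chr10:128270261-128270300, plus strand), *Rsad2* (chr12:26456548-26456587, minus strand) and *Oas3* (chr5:120777710-120777749, minus strand). The other 5 genes with a match, close to or after the start, were *Ddx58*, *Eif2ak2*, *Ifih1*, *Oas1a* and *Trim30a*. A second motif, the gamma-activated site TTCNNNGAA, was found in 7 of the 29 genes, 24.1%, and in 8.37% of the tested genes with a window. A match is a description of letters in a window and was not tested as a binding site. The estimated difference between genotypes had, on the log2 scale and as KO minus WT here and below, a median fold change of 0.89 over the 13 genes with the core motif and of 0.83 over the 16 without it, with ranges of 0.15 to 2.04 and 0.20 to 1.70.

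The libraries held 31052936 to 34451956 counts. *Clec7a* had 114, 230 and 92 counts in KO lungs and 1974, 2732 and 6734 in WT lungs. Lung markers were read in every library, with *Sftpc* of type 2 alveolar cells at 938 CPM or more (counts scaled to a common library size with edgeR's TMM factors). Replicate 1 of both genotypes differed from the other libraries in the summed markers of endothelium and fibroblasts. The summed endothelial markers were at 1248 CPM in KO replicate 1 and 691 CPM in WT replicate 1, against 2040 to 2671 CPM in the other 4 libraries, and the summed fibroblast markers at 2150 and 4689 CPM, against 6947 to 19400 CPM. Single fibroblast markers did not all follow the sum, with *Dcn* highest in WT replicate 1 at 449 CPM. The summed airway markers were at 2514 CPM in KO replicate 1 and 11020 CPM in WT replicate 1, against 291 to 4459 CPM in the other 4 libraries. Mitochondrially encoded transcripts took 7.34% of counts in KO replicate 1 and 2.69% to 3.87% in the others. The part of tissue makeup and mitochondrial share in the values below was not tested. Estimates of members and of named pathway genes that moved by over 1.5 times when 1 of the replicate 1 libraries was left out are given with and without it. Whole lung reads a mixture of cells, so more cells of a type and more RNA per cell cannot be told apart.

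All 39 genes had higher estimates in KO lungs, against 49.0% of all genes tested. The median log2 fold change was 0.86, with a range of 0.15 to 2.04, and the median of all tested genes was -0.01. None of the 39 passed an adjusted p of 0.05 in edgeR's quasi-likelihood test with Benjamini-Hochberg adjustment over all genes, in either direction, and the share called over all genes was likewise 0%. The smallest adjusted p of a member was 0.232. *Clec7a* itself, with a log2 fold change of -4.68, did not pass in edgeR's test either (adjusted p 0.203), while by DESeq2 its adjusted p was 1.52e-14. The absence of edgeR calls therefore does not show that genes were equal between the genotypes. At an unadjusted p under 0.05 the same test had 24 of the 39 higher in KO, where it had 5.95% of all genes, and 0 lower, where it had 5.89%. DESeq2 called 4 of the 39 higher, against 1.91% of the genes it tested, and 0 lower, against 1.73%. These 4 were *Ifi44*, *Herc6*, *Cmpk2* and *Irf9*. The genotypes did not overlap, with KO higher, for 27 of the 39, against 9.81% of all genes, and with KO lower for 0, against 11.3%. The estimate reached 2-fold for 14 of the 39, against 6.43% of all genes.

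KO replicate 1 carried much of the size of these differences and less of their direction. Without it all 39 estimates were still higher in KO, the median was 0.59, 16 had an unadjusted p under 0.05 by edgeR, against 5.74% of all genes, and 3 reached 2-fold. KO replicates 2 and 3 both lay above every WT library for 31 of the 39. Without both first replicates 38 were higher, the median was 0.67, and 29 had an unadjusted p under 0.05, but so had 15.3% of all genes in that direction. Leaving out WT replicate 2 lowered the count at an unadjusted p under 0.05 to 9, against 3.11% of all genes. With each mean centred on the 6 libraries, the 39 genes averaged 0.91, 0.26 and 0.12 log2 units in KO replicates 1 to 3 and -0.40, -0.56 and -0.33 in WT replicates 1 to 3. Every KO library thus stood above every WT library on this mean. The heat map of centred values by library shows the same genes one by one.

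**Figure D1:**
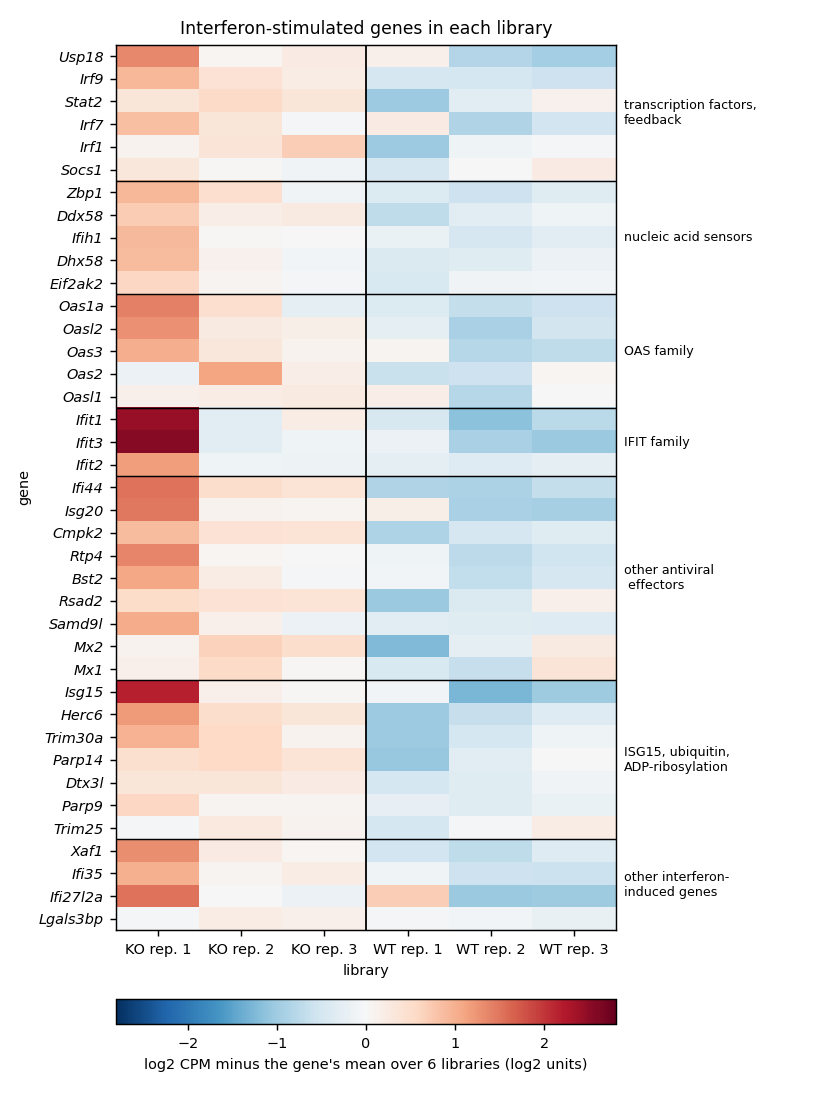
Log2 CPM of the 39 genes in each library (columns, KO left of WT), minus the gene's mean over the 6 libraries; rows are grouped by role and ordered by estimated fold change. KO columns are mostly red and WT columns mostly blue, and *Ifit1*, *Ifit3* and *Isg15* in KO replicate 1 are the darkest cells.

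The first group holds the transcription factors and feedback genes. *Irf9*, the DNA-binding part of the interferon-activated complex, had 86.8, 60.9 and 52.5 CPM in KO lungs and 33.0, 32.6 and 30.8 CPM in WT lungs. The WT values were nearly equal and every KO value was well above them. Its log2 fold change was 1.06 ± 0.22 (SE), with an adjusted p of 0.232 by edgeR and 0.0104 by DESeq2, and without KO replicate 1 it was 0.82. *Irf9* overlaps *Rnf31* on the same strand, and the counting of reads in the overlap is not stated. *Irf1*, a factor induced by both interferon types, had 65.7, 78.7 and 98.0 CPM in KO lungs and 30.5, 56.7 and 60.3 CPM in WT lungs. Here WT replicate 1 was low and KO replicate 1 was the lowest of the KO libraries, and the genotypes did not overlap (log2 fold change 0.72 ± 0.30, unadjusted p 0.0529 by edgeR, and 0.47 without WT replicate 1). *Stat2*, the partner of IRF9 in the complex, was alike in pattern, at 67.5, 78.1 and 68.1 CPM in KO lungs and 26.3, 42.7 and 58.1 CPM in WT lungs (0.75 ± 0.30, and 0.50 without WT replicate 1).

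*Usp18*, which removes ISG15 from proteins and dampens the receptor, had 47.9, 19.3 and 21.8 CPM in KO lungs and 20.6, 10.7 and 9.66 CPM in WT lungs. In both genotypes the first replicate was about 2-fold above the others, so the groups overlapped, and the log2 fold change of 1.12 ± 0.46 was 0.59 without KO replicate 1. *Irf7*, the factor that amplifies interferon-alpha transcription, also had its highest value of each genotype in replicate 1 (72.0, 50.9 and 38.7 CPM in KO, 46.8, 22.3 and 27.6 CPM in WT). Its log2 fold change was 0.74 ± 0.36, and 0.48 without KO replicate 1, and it overlaps *Phrf1* on the opposite strand, so its counts are uncertain if strand was not used. *Socs1*, an inhibitor of JAK kinases, had the smallest difference of the 39. It was at 4.96, 4.11 and 3.76 CPM in KO lungs and 2.89, 3.97 and 4.70 CPM in WT lungs, which overlapped (0.15 ± 0.31), and its estimate was 0.032 without KO replicate 1 and -0.020 without WT replicate 1. Its promoter carries 2 matches to the core motif, shown above. In this group 3 of 6 genes, *Irf9*, *Stat2* and *Usp18*, had an unadjusted p under 0.05.

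In all 5 sensors of foreign nucleic acid the genotypes did not overlap, with a median log2 fold change of 0.70. *Ddx58*, which encodes the RNA sensor RIG-I, had 97.5, 66.9 and 70.5 CPM in KO lungs and 36.2, 47.7 and 54.1 CPM in WT lungs (log2 fold change 0.77 ± 0.24, and 0.58 without KO replicate 1). *Zbp1*, a sensor of Z-form nucleic acid that can trigger cell death, had 34.5, 24.9 and 16.9 CPM in KO lungs and 13.8, 12.1 and 14.3 CPM in WT lungs (0.92 ± 0.28). KO replicate 3 lay close to the WT libraries for *Zbp1*. *Ifih1*, which encodes the sensor of long double-stranded RNA MDA5, had 95.8, 52.1 and 50.9 CPM in KO lungs and 44.4, 36.8 and 41.4 CPM in WT lungs. Its log2 fold change of 0.70 ± 0.29 was 0.33 without KO replicate 1. *Dhx58*, a regulator of both RNA sensors, and *Eif2ak2*, the kinase PKR that halts translation, had estimates of 0.68 ± 0.30 and 0.42 ± 0.22, which without KO replicate 1 were 0.33 and 0.20. *Ddx58*, *Zbp1* and *Ifih1* had an unadjusted p under 0.05 (edgeR adjusted p of 0.304 or more in this group).

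The OAS enzymes make short oligoadenylates that activate an RNA-degrading nuclease. *Oasl2* had 107, 52.0 and 49.2 CPM in KO lungs and 36.0, 23.3 and 30.5 CPM in WT lungs, with no overlap (1.21 ± 0.36, and 0.76 without KO replicate 1). *Oas1a* had 47.9, 25.0 and 15.3 CPM in KO lungs and 13.8, 11.4 and 12.2 CPM in WT lungs. It was graded among KO lungs and flat among WT lungs (1.24 ± 0.41, and 0.69 without KO replicate 1), and it belongs to a cluster of close copies, so its counts are uncertain. *Oas3* had an estimate of 0.96 ± 0.38 with no overlap, and 0.64 without KO replicate 1. *Oas2* and *Oasl1* did not have their highest value in KO replicate 1. *Oas2* had 12.6, 30.6 and 16.2 CPM in KO lungs and 9.15, 9.50 and 14.7 CPM in WT lungs, which overlapped (0.83 ± 0.39, and 0.38 without KO replicate 2). *Oasl1*, known in mouse as a repressor of *Irf7* translation, was at 5.12, 5.33 and 5.46 CPM in KO lungs and 5.28, 2.67 and 4.61 CPM in WT lungs (0.34 ± 0.33, and 0.54 without WT replicate 1). The unadjusted p was under 0.05 for *Oasl2*, *Oas1a* and *Oas3*.

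The IFIT proteins bind viral RNA and block its translation, and they held the highest estimate of the 39. *Ifit1* had 164, 24.8 and 35.0 CPM in KO lungs and 22.4, 13.8 and 18.2 CPM in WT lungs. The 3 KO values lay above the WT values, but KO replicate 1 was 5.49 times the mean of the other KO libraries. The log2 fold change of 2.04 ± 0.74 (edgeR adjusted p 0.370) was 0.72 without that library. *Ifit3* had 368, 50.5 and 57.9 CPM in KO lungs and 56.3, 33.4 and 30.9 CPM in WT lungs. KO replicate 1 was 6.80 times the mean of the other KO libraries, WT replicate 1 lay above KO replicate 2, and the log2 fold change of 1.98 ± 0.82 was 0.43 without KO replicate 1. *Ifit2* had 111, 45.5 and 45.3 CPM in KO lungs and 40.94, 38.97 and 41.44 CPM in WT lungs (0.74 ± 0.38, and 0.17 without KO replicate 1). The 3 genes lie on chromosome 19 between 34550694 and 34650009, and how reads shared with close copies in that cluster were divided is not stated.

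**Figure D2:**
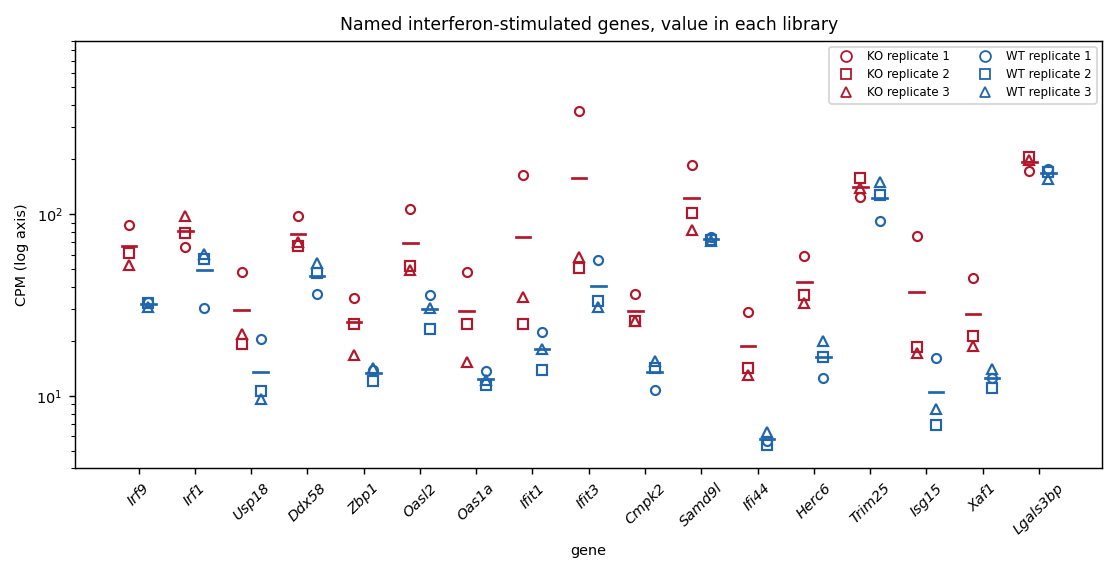
CPM on a log axis of the genes named by rule within each role group, 1 symbol per library and a line at each group mean, with KO left of WT for each gene. KO replicate 1 (red circles) is far above the other KO libraries for *Ifit3*, *Ifit1* and *Isg15*, while *Irf1*, *Trim25* and *Lgals3bp* have it lowest of the KO libraries.

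Among the other antiviral effectors were 2 of the 4 genes that DESeq2 called. *Ifi44*, an interferon-induced protein reported to restrain viral replication, had 29.1, 14.2 and 13.1 CPM in KO lungs and 5.65, 5.41 and 6.30 CPM in WT lungs. Its lowest KO value was about 2-fold its highest WT value. The log2 fold change was 1.70 ± 0.36, with an adjusted p of 0.232 by edgeR and 0.00202 by DESeq2, and 1.24 without KO replicate 1. *Cmpk2*, a mitochondrial nucleotide kinase, had 36.5, 26.0 and 25.9 CPM in KO lungs and 10.8, 14.3 and 15.6 CPM in WT lungs. These did not overlap, and the log2 fold change of 1.12 ± 0.24 (adjusted p 0.232 by edgeR and 0.00835 by DESeq2) was 0.93 without KO replicate 1. Its neighbour on chromosome 12, *Rsad2*, encodes viperin, an enzyme that makes a chain-terminating nucleotide. *Rsad2* had nearly equal KO values of 25.3, 23.7 and 23.1 CPM, and 8.69, 13.4 and 19.6 CPM in WT lungs (0.79 ± 0.31).

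*Samd9l*, whose human counterpart inhibits translation, had 188, 101 and 81.5 CPM in KO lungs and 74.7, 72.5 and 70.9 CPM in WT lungs (0.76 ± 0.32, and 0.33 without KO replicate 1). *Bst2*, or tetherin, which holds budding virus at the cell surface and in mouse also marks plasmacytoid dendritic cells, had 135, 74.3 and 61.8 CPM in KO lungs and 60.5, 39.6 and 46.2 CPM in WT lungs. KO replicate 3 was only just above WT replicate 1 for *Bst2* (0.89 ± 0.34, and 0.48 without KO replicate 1). *Siglech*, the defining marker of plasmacytoid dendritic cells, stood at 3.54, 4.47 and 5.37 CPM in KO lungs and 0.49, 1.11 and 2.74 CPM in WT lungs, and of the 12 markers of these cells 10 were tested, with 5 higher and 5 lower estimates. *Siglech*, *Spib* and *Ly6d* were higher at an unadjusted p under 0.05 by edgeR and 0 were lower. *Spib*, a factor of these cells and of B cells, was at 7.55, 10.5 and 8.17 CPM in KO lungs and 1.87, 2.98 and 3.36 CPM in WT lungs (DESeq2 adjusted p 0.000291). All 12 summed to 375, 462 and 584 CPM in KO lungs and 922, 526 and 448 CPM in WT lungs, most of it from *Atp1b1* and *Tcf4*, which other lung cells also express. Their part in the *Bst2* values was not tested. *Rtp4*, a chaperone-like antiviral protein, and *Isg20*, an RNA exonuclease, had estimates of 1.07 ± 0.42 and 1.18 ± 0.51, which without KO replicate 1 were 0.47 and 0.56. *Rtp4* overlaps *Masp1* and *Irf1* overlaps *Gm17334*, each on the opposite strand. The GTPases *Mx1* and *Mx2*, which trap viral ribonucleoproteins, were low and overlapped between the genotypes. *Mx1* had 12.8, 16.9 and 11.9 CPM in KO lungs and 8.63, 7.47 and 15.1 CPM in WT lungs (0.42 ± 0.33), and *Mx2* had an estimate of 0.72 ± 0.43, and 0.40 without WT replicate 1. GENCODE M21 annotates *Mx2* as a polymorphic pseudogene, and all other members as protein coding. In this group 5 of 9 genes had an unadjusted p under 0.05.

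The genes of ISG15 conjugation, ubiquitin and ADP-ribosylation gave the most members at an unadjusted p under 0.05, 6 of 7. *Herc6*, the main ISG15 ligase in mouse, had 59.1, 35.9 and 32.7 CPM in KO lungs and 12.6, 16.3 and 20.1 CPM in WT lungs. Every KO value lay well above every WT value, and the log2 fold change was 1.38 ± 0.30 (adjusted p 0.234 by edgeR and 0.00648 by DESeq2), and 1.07 without KO replicate 1. *Isg15*, the ubiquitin-like protein that is conjugated, had 76.0, 18.6 and 17.2 CPM in KO lungs and 16.1, 6.92 and 8.46 CPM in WT lungs. In each genotype replicate 1 was the highest, and WT replicate 1 came close to KO replicates 2 and 3. Its log2 fold change of 1.83 ± 0.68 was 0.77 without KO replicate 1 and 1.23 without both first replicates. *Dtx3l* and *Parp9*, partners in a ubiquitin ligase complex, overlap each other on opposite strands of chromosome 16. *Dtx3l* had 46.3, 46.1 and 43.0 CPM in KO lungs and 25.9, 29.0 and 33.8 CPM in WT lungs (0.61 ± 0.17, unadjusted p 0.00963 by edgeR, DESeq2 adjusted p 0.0858). Its KO values were nearly equal, and the estimate was 0.59 without KO replicate 1.

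*Parp9* had an estimate of 0.52 ± 0.20, and 0.33 without KO replicate 1. *Parp14*, an ADP-ribosyltransferase beside them on chromosome 16, had 114, 123 and 108 CPM in KO lungs and 40.0, 67.9 and 83.0 CPM in WT lungs. KO values were even while WT values spread about 2-fold, and the estimate of 0.86 ± 0.28 was 0.86 without KO replicate 1 and 0.62 without both first replicates. *Trim30a*, a mouse regulator of innate signalling, had 83.2, 62.0 and 45.4 CPM in KO lungs and 21.1, 30.1 and 39.2 CPM in WT lungs (1.08 ± 0.32). *Trim30a*, like *Ifi27l2a*, has close copies nearby, so its counts are uncertain. *Trim25*, the ubiquitin ligase that acts on RIG-I, differed little. It had 125, 158 and 140 CPM in KO lungs and 92.3, 127 and 150 CPM in WT lungs, which overlapped (0.20 ± 0.23, and 0.026 without WT replicate 1).

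The last 4 genes have other or less defined roles. *Xaf1*, a promoter of apoptosis, had 44.7, 21.3 and 18.9 CPM in KO lungs and 12.6, 11.1 and 14.2 CPM in WT lungs, with no overlap (1.16 ± 0.36, and 0.67 without KO replicate 1). *Ifi35*, an interferon-induced leucine zipper protein, had an estimate of 0.90 ± 0.30, also without overlap, and 0.56 without KO replicate 1. *Ifi27l2a* had 98.1, 34.2 and 30.6 CPM in KO lungs and 55.2, 16.7 and 17.2 CPM in WT lungs. Replicate 1 was about 3-fold above the others in both genotypes, so the groups overlapped (0.87 ± 0.65), and the estimate was 0.13 without KO replicate 1, 1.68 without WT replicate 1 and 0.94 without both first replicates. *Lgals3bp*, a secreted galectin-binding protein, was at 173, 207 and 198 CPM in KO lungs and 177, 171 and 156 CPM in WT lungs (0.20 ± 0.17).

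**Figure D3:**
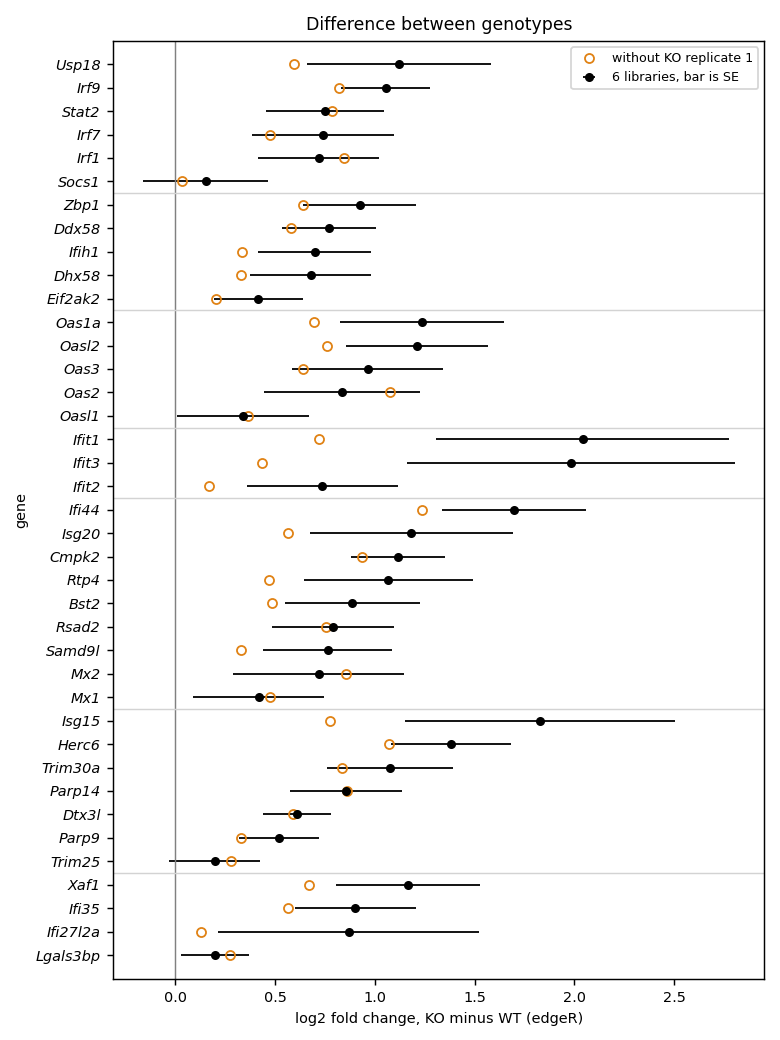
Log2 fold change (KO minus WT, edgeR) of the 39 genes, with the SE as a bar for all 6 libraries (black) and the estimate without KO replicate 1 (open orange). All points lie right of 0, and leaving out KO replicate 1 moves *Ifit1*, *Ifit3* and *Isg15* furthest towards 0 and leaves *Parp14*, *Dtx3l*, *Rsad2* and *Stat2* nearly in place.

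The members thus differed in how they ranked the libraries. KO replicate 1 held the highest value of all 6 libraries for 30 of the 39, while it did so for 21.9% of all genes tested. It was at least 2-fold above the mean of KO replicates 2 and 3 for 13 members, against 7.53% of all genes. These were *Ifit3*, *Ifit1*, *Isg15*, *Ifi27l2a*, *Isg20*, *Rtp4*, *Ifit2*, *Oas1a*, *Usp18*, *Xaf1*, *Ifi44*, *Oasl2* and *Samd9l*. Their median log2 fold change was 1.18 with all libraries and 0.59 without KO replicate 1. For 9 members KO replicate 1 was instead below the mean of the other KO libraries, namely *Oas2*, *Mx2*, *Irf1*, *Trim25*, *Lgals3bp*, *Mx1*, *Stat2*, *Oasl1* and *Parp14*. Their median was 0.72 with all libraries and 0.79 without KO replicate 1. For 16 members the first replicate was the highest of its genotype in both KO and WT, among them *Isg15*, *Usp18*, *Irf7* and *Ifi27l2a*. For 5 members, *Irf1*, *Stat2*, *Oas2*, *Mx2* and *Trim25*, it was the lowest in both. For 9 members, among them *Cmpk2*, *Herc6*, *Ddx58* and *Trim30a*, KO replicate 1 was the highest KO library and WT replicate 1 the lowest WT library. The members were sorted here by their own values, so these counts are a description.

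**Figure D4:**
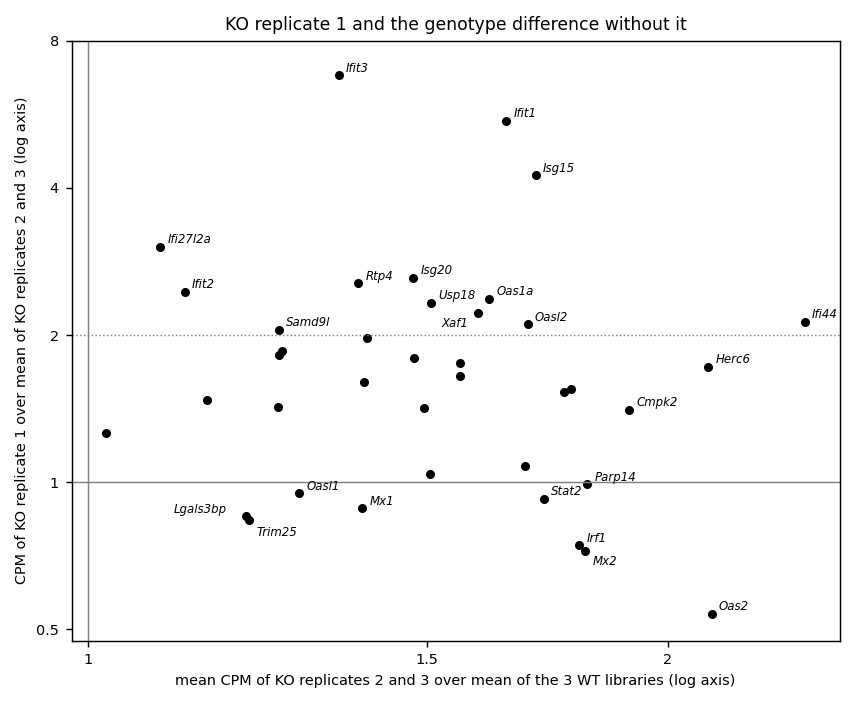
Each point is 1 of the 39 genes; the horizontal axis is the mean CPM of KO replicates 2 and 3 over the mean of the WT libraries, the vertical axis the CPM of KO replicate 1 over the mean of KO replicates 2 and 3, both log axes. All points lie right of 1, *Ifit3* is highest at 6.80, and *Ifi44*, *Oas2* and *Herc6* lie furthest right.

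Levels between genes were compared per length, in FPKM (fragments scaled by gene length and library size). *Ifi27l2a* was at 114 ± 77.3 FPKM in KO lungs and 59.1 ± 41.4 FPKM in WT lungs (SD, n = 3 each), and *Bst2* at 111 ± 45.5 FPKM in KO lungs and 57.6 ± 10.3 FPKM in WT lungs. In KO lungs *Ifit3* (88.0 ± 99.1 FPKM), *Lgals3bp* (86.3 ± 13.3 FPKM) and *Isg15* (47.8 ± 42.1 FPKM) followed. Neighbours among these 5 lay within 1 SD of each other's ranges, and the SD of *Ifit3* exceeded its mean. In WT lungs *Lgals3bp* came first at 75.4 ± 4.92 FPKM, followed by *Ifi27l2a* and *Bst2*. At the low end *Socs1* had 1.47 ± 0.20 FPKM in KO lungs and 1.28 ± 0.35 FPKM in WT lungs, and *Oas3* 2.34 ± 0.72 FPKM in KO lungs and 1.15 ± 0.36 FPKM in WT lungs. The median over the 39 genes was 16.5 FPKM in KO lungs and 8.81 FPKM in WT lungs.

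**Figure D5:**
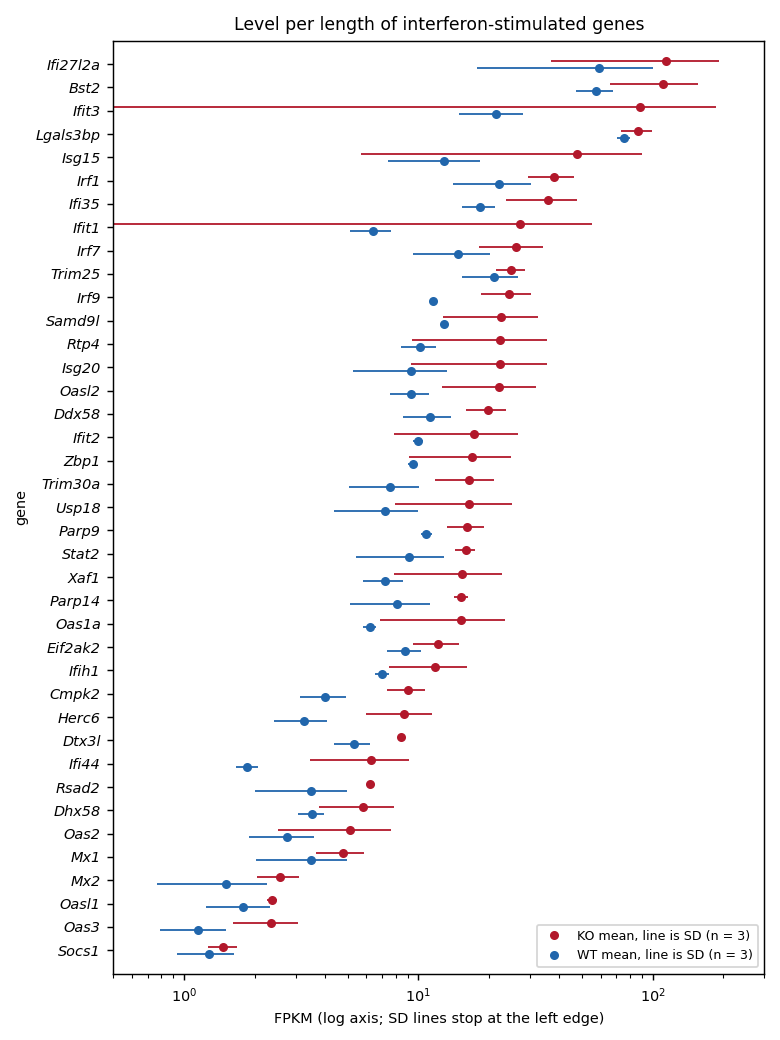
Mean FPKM with SD (n = 3) of each gene on a log axis, KO (red) above WT (blue), ordered by the KO mean. *Ifi27l2a* and *Bst2* are at the top, *Socs1* at the bottom, and the SD lines of *Ifit1* and *Ifit3* in KO lungs run past the left edge.

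The other genes of the pathway came from lists of ligands, receptors, inducers and inhibitors. Of 18 genes for type I interferons 0 passed the filter, and 14 had 0 counts in every library, where 3 counts, the limit a count of 0 allows, correspond to 0.0871 to 0.0966 CPM. Together they had 1, 4 and 3 counts in KO lungs and 4, 4 and 11 counts in WT lungs. *Ifng*, the type II interferon, had 4, 20 and 5 counts in KO lungs and 4, 0 and 5 counts in WT lungs. Type I ligand transcripts were thus at or near the limit of detection in both genotypes, and interferon genes share sequence, so single counts are uncertain. *Ifng* did not pass the filter either, but its 20 counts in KO replicate 2, or 0.595 CPM, lay above that limit. All 9 receptor and kinase genes were tested, and 0 of 9 passed at an unadjusted p under 0.05, with 4 higher and 5 lower estimates and a median of -0.04. *Jak1*, with the highest CPM on the list, had 269, 348 and 340 CPM in KO lungs and 252, 372 and 357 CPM in WT lungs (-0.04 ± 0.24). The receptor chain gene *Ifnar1* had 82.7, 124 and 109 CPM in KO lungs and 77.5, 134 and 157 CPM in WT lungs (-0.22 ± 0.30). Without KO replicate 1 the estimates were 0.07 for *Jak1* and -0.07 for *Ifnar1*, and without WT replicate 1 -0.19 and -0.47.

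The list of interferon induction held 15 tested genes, not all of them inducers, as it includes the repressor *Irf2*. Of the 15, 11 had higher and 4 lower estimates, with a median of 0.07. An unadjusted p under 0.05 by edgeR was found for 3, all higher, *Irf2* among them. *Irf3*, the factor that starts interferon-beta transcription, had 44.3, 39.2 and 39.7 CPM in KO lungs and 34.6, 28.3 and 30.2 CPM in WT lungs (0.41 ± 0.16). *Mavs*, the mitochondrial adaptor of the RNA sensors, and *Irf2*, a repressor related to *Irf1*, had 0.40 ± 0.16 and 0.41 ± 0.16. *Azi2*, with the highest CPM on the list, an adaptor of the kinase TBK1, had an estimate of -0.12 ± 0.16. It was -0.18 without KO replicate 1 and -0.19 without WT replicate 1. Of 7 inhibitors 0 had an unadjusted p under 0.05. *Socs3*, with the highest CPM among them, an inhibitor of cytokine receptors that responds strongly to interleukin-6, had 63.9, 552 and 471 CPM in KO lungs and 198, 331 and 372 CPM in WT lungs (0.27 ± 0.72). Its estimate was 0.77 without KO replicate 1 and 0.04 without WT replicate 1. KO replicate 1, the highest library for most interferon-stimulated genes, was the lowest for *Socs3*.

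Markers of leukocytes also differed between the genotypes. The 13 NK and T cell markers found summed to 98.4, 113 and 87.2 CPM in KO lungs and 24.7, 32.2 and 44.5 CPM in WT lungs, and all 13 had higher estimates, 12 of them at an unadjusted p under 0.05 by edgeR. The 8 B cell markers summed to 81.6, 94.0 and 66.7 CPM in KO lungs and 21.0, 36.8 and 49.0 CPM in WT lungs, all 8 higher, 5 at that threshold. The 9 conventional dendritic cell markers summed to 262, 440 and 279 CPM in KO lungs and 82.0, 106 and 185 CPM in WT lungs, 8 of 9 higher, 6 at that threshold. The remaining marker, *Clec10a*, was lower at that threshold (unadjusted p 0.0438 by edgeR). DESeq2 called 9 of the NK and T cell markers, 3 of the B cell markers and 3 of the conventional dendritic cell markers, all higher. On these 3 sums, as on the mean of the 39 genes, every KO library stood above every WT library, but KO replicate 1 was not the highest on any of them. The macrophage markers, 10 of 12 with lower estimates, summed to 2762, 1887 and 1163 CPM in KO lungs and 3104, 3476 and 2762 CPM in WT lungs. *Chil3*, which is on the monocyte list too, was the largest part of this sum in every library, and its values are given with that list. At an unadjusted p under 0.05 by edgeR, *Ear2* was higher and *C1qc* lower, and DESeq2 called only *Ear2* (adjusted p 0.0153). Of the 8 monocyte markers 6 had higher estimates, with a median of 0.27, and 0 had an unadjusted p under 0.05. Their sum was 1565, 1326 and 1149 CPM in KO lungs and 1611, 2559 and 1897 CPM in WT lungs, of which *Chil3*, also expressed by macrophages, made up 1140, 392 and 325 CPM in KO lungs and 1368, 1790 and 1026 CPM in WT lungs. Of the 8 neutrophil markers 7 were tested and all 7 had lower estimates, with a median of -0.96, 3 at an unadjusted p under 0.05. *Ly6g*, not tested for its low counts, had 29, 6 and 10 counts in KO lungs and 3, 9 and 7 counts in WT lungs. The 8 markers summed to 181, 136 and 132 CPM in KO lungs and 209, 278 and 268 CPM in WT lungs. DESeq2 called 1 of them lower, *Cxcr2*. The 10 alveolar epithelial markers summed to 22170, 3827 and 10670 CPM in KO lungs and 12390, 3293 and 2172 CPM in WT lungs. The sum was highest in KO replicate 1, where *Sftpc* alone had 13700 CPM. Single markers differed from it, with *Sftpb* and *Aqp5* highest in WT replicate 1 and *Abca3* in KO replicate 3. All 10 had higher estimates, but without KO replicate 1 those of *Sftpd*, *Ager*, *Hopx* and *Aqp5* were negative, from -0.54 to -0.0005. For *Rtkn2* and *Lamp3* the genotypes did not overlap, with estimates of 2.39 and 2.44, and 1.56 and 1.92 without KO replicate 1. These 2 alone had an unadjusted p under 0.05 by edgeR, and DESeq2 called both (adjusted p 0.0133 and 0.00155). No defining marker on these lists was at 0 over all libraries. The part of these cells in the values of the interferon-stimulated genes was not tested.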

How the data were processed

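RNA was sequenced from whole lung of 3 KO and 3 WT mice, 1 library each, using TRIzol for extraction and an NEBNext Ultra kit, per the labels' protocols. The authors deposited raw whole-number read counts for each gene and, separately, a table of FPKM values. The submitters' processing notes name HISAT2 2.0.4, StringTie 1.3.4d and GRCm38 but no roles; the handling of strand and of shared reads is not given there. KO columns in the FPKM table have a suffix of unknown meaning, so they were used without replicate numbers.

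The count table, 26100 rows with totals of 31052936 to 34451956 counts, was tested with edgeR 4.0.16 (R 4.3.3): filterByExpr (16633 rows kept), TMM factors, a robust quasi-likelihood model of genotype alone, and 2-sided p-values adjusted by Benjamini-Hochberg over all genes at 0.05. SE is the size of the log2 fold change divided by the root of its F statistic, and carries the same information as the unadjusted p. Counting error matters little at these levels, and the number of libraries limits precision. p-values set the genotype difference against the spread between libraries of the same genotype, among these 6 libraries only. Alternatives were DESeq2 1.42.0, limma-voom (limma 3.58.1), limma-voom with sample weights, other scalings and filters, limma on log2(FPKM + 1) and log2(FPKM + 0.1), the replicate number as a block, and libraries left out. The scripts were tested on simulated counts. Coordinates and gene types are from GENCODE M21 (GRCm38).

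Members, lists and tests were chosen with earlier results of these data known. In each role group the member of smallest p, highest mean CPM and largest log2 fold change, and each DESeq2 call, were given by library; other members were added after their values were seen. Of the other pathway genes the rule named those with an unadjusted p under 0.05 and the highest mean CPM per list; *Ifnar1* was added.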

Additional observations from a re-analysis of the deposited data

How the results depend on the processing

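Over all genes edgeR called 0, and so did limma-voom, the other scalings and filters, the non-robust prior and the FPKM fits. DESeq2 called 678, 3.63% of the genes it tested, and 4 of the 39 members. With sample weights limma-voom called 2221, 13.4% of the genes tested (1204 higher and 1017 lower), and 20 of the 39 members. The members called were all higher in KO. Leaving out 1 library in turn gave 0 to 3 calls over all genes, and leaving out both first replicates gave 46; 0 of these were interferon-stimulated genes. The count of members higher at an unadjusted p under 0.05 was 24, and 9 to 25 with 1 library left out. Over all genes that count, in either direction, was 1968, and 1080 to 2642 with 1 library left out. Both counts were lowest without WT replicate 2. *Mx1*, 0.42 with all libraries, ranged from 0.23 to 0.78 with 1 library left out. The median log2 fold change, 0.86, ranged from 0.59 to 0.99 with 1 library left out. *Socs1* alone changed sign: -0.050 with sample weights, -0.13 without both first replicates, and -0.020 to 0.32 with 1 library left out. The cause was not tested. With the replicate number as a block, 0 genes were called and 29 members had an unadjusted p under 0.05, as had 3387 of the 16633 genes in either direction, against 1968 without the block; the correlations of deviations for same-numbered libraries were 0.43, 0.45 and -0.07, so the numbers were not taken to pair the mice. With 3 libraries per genotype, edgeR's smallest adjusted p among the 39 was 0.232.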
